A study of Homo sapiens with 6 samples.

Results

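TMPRSS15, MIR4527HG, OSCAR and TAC1, 4 genes whose RNA fell steeply when HMGB2 was overexpressed in melanoma cells, were followed together with their chromosomal neighbours. They were selected for their large falls in this very contrast, and are 4 of the 58302 gene IDs counted, of which 18836 received an adjusted p. RNA-seq was available for A375, a human melanoma cell line, in 2 groups of 3 libraries. One group carried an empty vector and the other stably overexpressed HMGB2, a DNA-bending chromatin protein. The stable lines were made by lentiviral transduction followed by drug selection, and no further line of either group is described for these libraries. The study's reporting form calls the 3 replicates technical, so the spread between libraries covers cell pellets and not independent transductions.

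The 4 genes have little in common by function. TMPRSS15 encodes enteropeptidase, a membrane-anchored serine protease of the duodenal brush border that activates trypsinogen and so starts the digestive protease cascade. MIR4527HG is a long non-coding RNA (lncRNA) gene that hosts a microRNA. OSCAR is a collagen-binding immunoglobulin-like receptor of osteoclasts and myeloid cells that signals through the Fc receptor gamma chain, and its gene lies in the leukocyte receptor complex. TAC1 encodes the precursor of substance P and neurokinin A, neuropeptides of the tachykinin family. None of these is a classical melanocyte gene.

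The genes lie on 4 different chromosomes of GRCh38. TMPRSS15 (ENSG00000154646) spans chr21:18269116-18485879 on the minus strand, a body of 217 kb. MIR4527HG (ENSG00000267761) spans chr18:47285725-47594550 on the plus strand, 309 kb. OSCAR (ENSG00000170909) is compact, 8.03 kb at chr19:54094668-54102692 on the minus strand. TAC1 (ENSG00000006128) covers 8.39 kb at chr7:97732084-97740472 on the plus strand. Thus a pair was longer and a pair shorter than the median tested gene, whose body measures 26.4 kb. The GC content of the canonical transcript ran from 38.1% for TMPRSS15 and 39.3% for TAC1 through 48.3% for MIR4527HG to 61.4% for OSCAR, against a median of 48.6%. None of the 50-base words in the annotated transcripts of the 4 genes occurred in an annotated transcript of another gene. Copies outside annotated transcripts were not searched for.

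The microRNA hosted in MIR4527HG is shown because it is annotated within the transcript that fell furthest of the 4. Its mature form, from RefSeq on GRCh38.p14, maps to chr18:47380503-47380524 on the plus strand, within an intron of the host. Capitals mark the seed, bases 2 to 8.
hsa-miR-4527: uGGUCUGCaaagagaugacugu
The seed occurs in 2 of the 2545 mature human sequences of the RefSeq table, this one included. Libraries selected by poly(A) tail do not measure mature microRNAs, and the microRNA gene itself received 1 read in the 6 libraries, in empty vector replicate 3.

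Promoters matched for 2 of the 4 genes in the RefSeq table, TMPRSS15 and TAC1. They are shown because both genes fell while their GC content and CpG supply differed widely. Each line gives the 250 bases before the start site, 5′ to 3′ on the strand of the gene, with motif matches in capitals. The TMPRSS15 window is chr21:18403786-18404035, before the start of its canonical transcript (other annotated transcripts start farther upstream), and that of TAC1 is chr7:97731836-97732085.
TMPRSS15: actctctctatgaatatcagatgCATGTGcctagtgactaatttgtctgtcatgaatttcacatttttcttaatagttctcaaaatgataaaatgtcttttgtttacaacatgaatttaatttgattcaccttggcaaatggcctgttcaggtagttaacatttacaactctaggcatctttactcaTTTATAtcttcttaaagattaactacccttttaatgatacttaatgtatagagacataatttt
TAC1: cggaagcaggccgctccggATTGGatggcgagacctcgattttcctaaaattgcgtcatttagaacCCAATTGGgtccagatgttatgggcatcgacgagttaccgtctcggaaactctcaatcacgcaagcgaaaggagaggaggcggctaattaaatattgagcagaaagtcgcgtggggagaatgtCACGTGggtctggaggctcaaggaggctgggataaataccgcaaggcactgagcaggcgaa
The TMPRSS15 window had a GC content of 29.2% and 0 CG dinucleotides, which placed it at percentile 1.15 of the GC content of all 35116 promoter windows. The TAC1 window had 52.4% GC and 18 CG dinucleotides, against medians of 58% and 11. Positions below count backwards from the start site, and both strands were searched. The E-box CATGTG, a form bound by the melanocyte factor MITF among others, lay at -227 to -222 of TMPRSS15 and occurs in 9.42% of all windows. The palindromic E-box CACGTG lay at -61 to -56 of TAC1 and occurs in 6.34%. TATAAA was found on the opposite strand at -63 to -58 of TMPRSS15, and 10.7% of windows hold it. CCAAT, held by 32% of windows, occurred at 3 places in TAC1, at -231 to -227, -184 to -180 and -181 to -177, the last pair overlapping. The AP-1 motif TGACTCA and the cAMP response element TGACGTCA, held by 4.2% and 1.65% of all windows, had no match in either. A match is a stretch of letters and not a measured binding site.

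The groups were as labelled. HMGB2 itself rose from 7514 ± 243 to 15517 ± 1177 normalized counts (mean ± SD, n = 3 libraries; counts divided by DESeq2 size factors), a change of 1.05 on the log2 scale (SE 0.10, adjusted p = 4.4e-22 with DESeq2). Depth was between 45925053 and 56755212 reads assigned to genes per library. Empty vector replicate 3 stood apart, differing from the other empty vector libraries by a chi-square per degree of freedom of 73.9 and 81.5, against 13.5 between those. HMGB2 replicate 3 had the most multimapped reads, 10.6% against 2.58% to 4.89% elsewhere. Of 9 melanocyte lineage markers, 6 were tested and none was called. S100B was at 3443 and 3714 and MITF at 1442 and 1627 mean normalized counts in empty vector and HMGB2 cells, while TYR and SOX10 were at or near 0. SOX10 and PMEL overlap genes on the other strand. In the column used they had 0% and 3.37% of the reads that the stranded columns together gave them, and S100A1 had 1.82%. Those columns can hold reads of an overlapping gene, so the levels of these 3 markers are uncertain.

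TMPRSS15 was by far the most abundant of the 4. It had 5873, 6058 and 7451 normalized counts in the empty vector libraries and 575, 433 and 655 in the HMGB2 libraries. Every HMGB2 library thus lay below every empty vector library, with the lowest control 8.97 times the highest HMGB2 value. The means were 6461 ± 863 and 554 ± 112, a change of -3.54 on the log2 scale (SE 0.17) and 8.58% of the control level left. Per kilobase of exon, a gut protease transcript stood at percentile 91.6 of all tested genes in the control melanoma cells and at 55.1 after HMGB2 overexpression. In bulk RNA, fewer cells with a transcript and less transcript per cell cannot be told apart.

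MIR4527HG fell furthest. Its normalized counts were 771, 807 and 870 in the controls and 38.2, 43.3 and 56.3 in the HMGB2 libraries. The controls were tightly grouped and none overlapped the HMGB2 libraries, the nearest values being 13.7-fold apart. The mean dropped from 816 ± 50.4 to 45.9 ± 9.33, a change of -4.16 on the log2 scale (SE 0.19), with 5.63% left. Its level per kilobase moved from percentile 80.8 to 36.2.

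OSCAR was measured at a lower level and with more spread. Its values were 228, 168 and 133 in the controls and 36.3, 31.5 and 13.5 in the HMGB2 libraries. The third library was the lowest in both groups, and the groups were 3.66-fold apart at their nearest. The means of 177 ± 48.1 and 27.1 ± 12.03 gave -2.69 on the log2 scale (SE 0.34) and 15.4% left.

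TAC1 had 125, 118 and 115 normalized counts in the controls and 27.3, 19.7 and 10.1 in the HMGB2 libraries, which rest on 9 to 30 reads each. The control values were almost equal, and the HMGB2 values, all lower, differed among themselves. From 119 ± 5.37 the mean fell to 19.0 ± 8.58, a change of -2.62 on the log2 scale (SE 0.33) with 15.9% left. The nearest values of the groups were 4.21-fold apart.

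**Figure D1:**
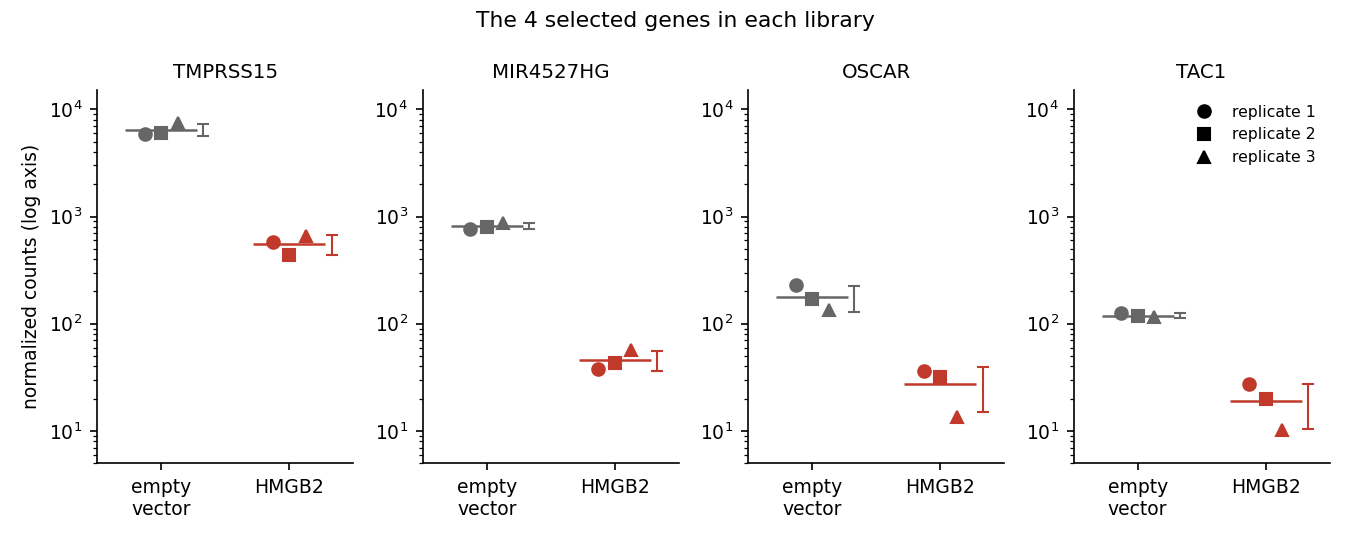
Normalized counts of the 4 selected genes in each library, on a log axis; circles, squares and triangles are replicates 1, 2 and 3, horizontal lines are group means and bars are ± 1 SD (n = 3). The groups do not overlap for any gene, and the HMGB2 libraries retain between 5.63% (MIR4527HG) and 15.9% (TAC1) of the control mean.

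All 4 were called lower with DESeq2, in a table in which 2.64% of genes were. All 4 also had groups that did not overlap, as had 21.9% of all tested genes. Because that contrast selected them, these values describe the selection and carry no test. Reads remained in every HMGB2 library, from 9 for TAC1 to 633 for TMPRSS15, so the transcripts were strongly reduced and not absent. The log2 fold changes varied little with processing, spanning -3.68 to -3.40 for TMPRSS15, -4.33 to -4.04 for MIR4527HG, -2.96 to -2.38 for OSCAR and -2.98 to -2.34 for TAC1 over 14 alternatives. Without empty vector replicate 3 they were -3.43, -4.12, -2.85 and -2.65.

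The rank of the 4 genes depends on the floor of expression. Among 466 called falls with a mean of 50 or more normalized counts, MIR4527HG, TMPRSS15, OSCAR and TAC1 took ranks 1, 2, 3 and 4. Just outside stood NUPR1, a stress-induced nuclear protein, at -2.38, FCER2, the low-affinity IgE receptor, at -2.31, the cornified envelope gene SPRR2D at -2.04 and the cytokine IL24 at -1.96. When all 498 called falls were ranked whatever their level, the 4 genes stood at 5, 11, 15 and 16. OSBPL10-AS1, an antisense RNA that dropped from 61.8 to 0.606 mean normalized counts, led that order.

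The replicates of the 4 genes did not vary together as 1 block. TMPRSS15 and MIR4527HG had their highest value of each group in replicate 3, whereas OSCAR and TAC1 had their lowest there. Likeness was measured as the Euclidean distance between centred log2(normalized count + 1) profiles over the 6 libraries, among genes with a mean of 50 or more, 13332 of which were compared. The nearest profile to OSCAR was TAC1 and the reverse, at a distance of 0.51, and TMPRSS15 and MIR4527HG were each other's nearest at 0.84. MIR4527HG lay 2.25 from TAC1 and 2.34 from OSCAR, its next nearest, while TMPRSS15 lay 1.66 from TAC1 and 1.72 from FCER2. FCER2 was also second for OSCAR (1.03) and for TAC1 (0.79), followed by NUPR1 for OSCAR (1.08) and ANKFN1 for TAC1 (1.15). Since the genes were selected for the same contrast, likeness between them is a description.

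With DESeq2 at its defaults, the annotated neighbours within 1 Mb of each gene body, selected by position alone, were called at a rate near that of all genes. There were 308 of them, 33 around TMPRSS15, 41 around MIR4527HG, 195 around OSCAR and 39 around TAC1. Of these, 183 had no read in any library in the column used, and 70 received an adjusted p. An empty count does not show absence of expression for microRNA genes, whose mature forms poly(A) libraries do not measure. Nor does it for genes that overlap others, as reads that fall on several genes were set aside. Of those 70, 4 were called at an adjusted p under 0.05 with DESeq2 (5.71%), against 4.94% of all tested genes. By window they were 1 of 7 around TMPRSS15 (14.3%), 1 of 11 around MIR4527HG (9.09%), 0 of 41 around OSCAR and 2 of 11 around TAC1 (18.2%). NPTX2 rose, where 2.29% of all genes were called higher, and ENSG00000228708, TPMTP1 and ASNS fell. The median log2 fold change of the 70 was 0.004, against 0.003 over all tested genes, and 11 (15.7%) had groups that did not overlap, against 21.9%. Without empty vector replicate 3 many more genes were called in the whole table (17.8%), and so were neighbours, 12 of 62 (19.4%). With the replicate number as a block, 7 of 57 neighbours (12.3%) and 12.5% of all genes were called. The shares lay further apart in other fits. They were 4 of 66 (6.06%) against 2.81% with edgeR and 5 of 125 (4%) against 2.3% without the independent filter. Without empty vector replicate 1 they were 3 of 70 (4.29%) against 1.97%, and without HMGB2 replicate 3, 4 of 70 (5.71%) against 2.3%.

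**Figure D2:**
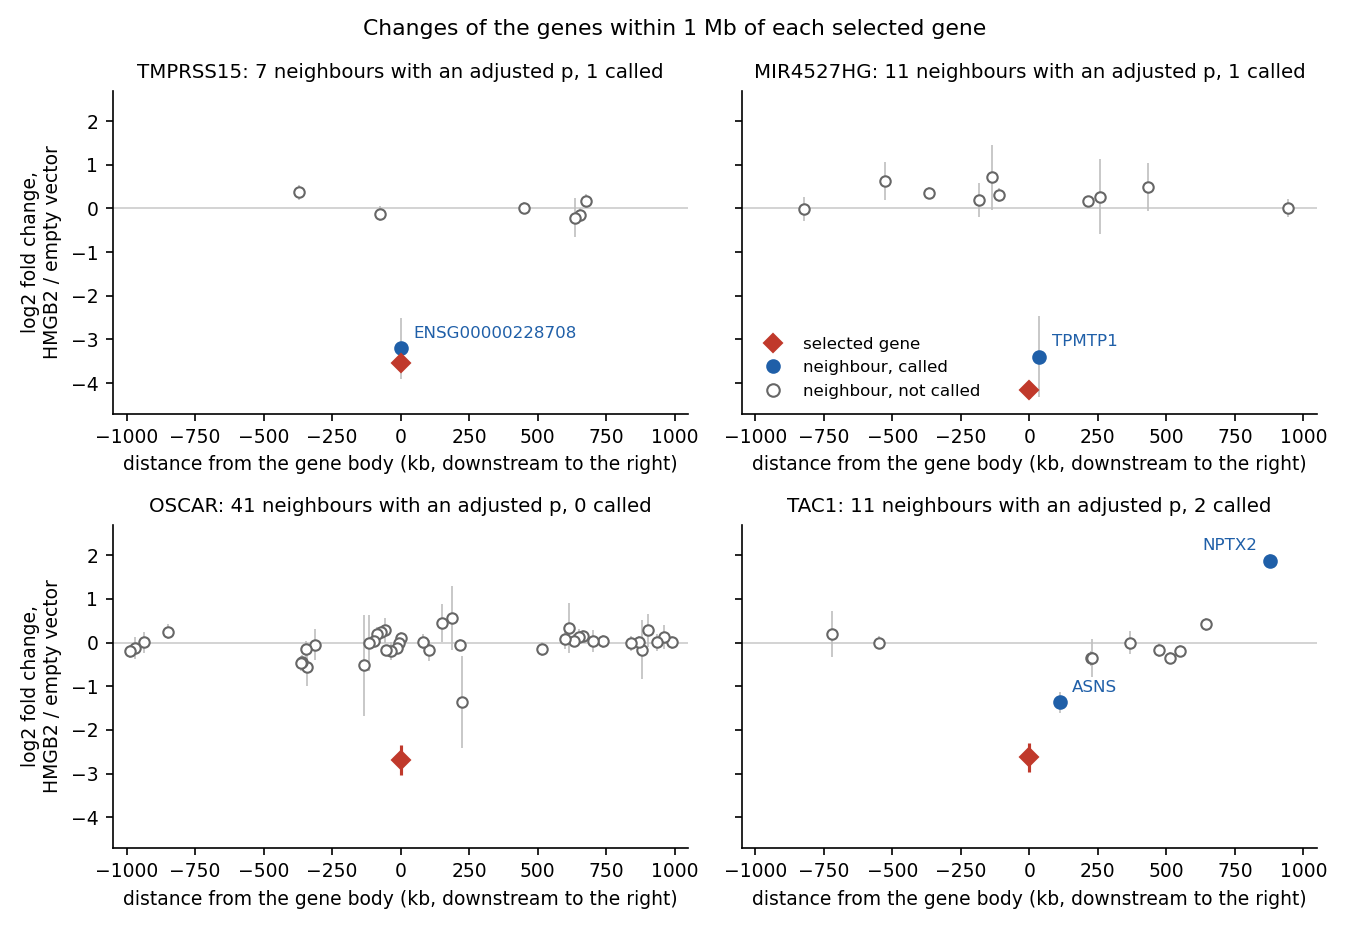
Log2 fold change (HMGB2 over empty vector) of every neighbour with an adjusted p against its distance in kb from the body of the selected gene, with downstream to the right; bars are standard errors, blue points are called neighbours, open points are not called and the red diamond is the selected gene. Most neighbours lie near 0, and the 4 called ones are ENSG00000228708 at -3.21, TPMTP1 at -3.39, ASNS at -1.37 and NPTX2 at 1.88.

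Around TMPRSS15 the genome is sparse, with 14.9 annotated genes per Mb, and 7 neighbours were tested. The called one was ENSG00000228708, an uncharacterized lncRNA at chr21:18477358-18486599. It lies on the same strand as TMPRSS15 and across the upstream end of its body, without sharing exon bases. Reads from TMPRSS15 introns over its exons would be counted to it, so its fall and that of TMPRSS15 cannot be told apart. The lncRNA had 44, 29 and 35 reads in the controls and 10, 1 and 1 in the HMGB2 libraries, so the groups did not overlap. Its mean went from 35.9 ± 9.49 to 3.73 ± 4.64 normalized counts, a change of -3.21 on the log2 scale (SE 0.70, adjusted p = 0.000288 with DESeq2). The call held with edgeR (adjusted p = 0.0311) and without any one library (highest adjusted p = 0.0331, without empty vector replicate 1), and the fits with the replicate block or with replicates 1 and 2 alone gave the gene no adjusted p. The size rested in part on HMGB2 replicate 1, which held 10 of the reads, and was -5.09 without it, against -3.41 to -2.75 without any other.

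The other tested neighbours of TMPRSS15 were not called. MIR548XHG, a microRNA host lncRNA 75.4 kb upstream and the nearest on that side, had 354 ± 46.9 and 325 ± 40.5 normalized counts (log2 fold change -0.12, SE 0.17, adjusted p = 0.854). C21orf91, the nearest tested downstream at 450 kb, had 894 ± 135 and 897 ± 31.9, a change of 0.00 on the log2 scale (SE 0.14, adjusted p = 0.995). CXADR, the coxsackievirus and adenovirus receptor, stood at 0.17 (SE 0.16), and the anti-proliferative gene BTG3 at -0.15 (SE 0.15). CHODL, only 1.74 kb downstream, had 1 to 9 reads in the controls and 0 to 4 in the HMGB2 libraries and received no adjusted p. PPIAP22, a processed pseudogene 372 kb upstream, was at 0.37 (SE 0.17, adjusted p = 0.287) and was called higher under the replicate block at 0.38 (adjusted p = 0.0013). That value is uncertain, as 88.9% of its 50-base words occur in other genes, above all PPIA.

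In the MIR4527HG window 11 of 41 neighbours were tested, and 1 was called. TPMTP1, a processed pseudogene of thiopurine methyltransferase, begins 35.6 kb downstream of MIR4527HG on the same strand. It had 23, 20 and 12 reads in the controls and 1, 0 and 4 in the HMGB2 libraries, which did not overlap. Its mean moved from 17.9 ± 5.18 to 1.80 ± 2.38, a change of -3.39 on the log2 scale (SE 0.92, adjusted p = 0.00792 with DESeq2). The call was lost when empty vector replicate 1 or 2 (adjusted p = 0.212 and 0.0924) or HMGB2 replicate 1 or 2 (0.107 and 0.115) was left out, and without empty vector replicate 3 no adjusted p was given. The change was -5.25 without HMGB2 replicate 3, which held 4 of the 5 HMGB2 reads, and -2.79 without HMGB2 replicate 2. The parent gene TPMT, which shares 7.41% of the 50-base words of the pseudogene, stood at -0.03 (SE 0.12, adjusted p = 0.964).

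The protein-coding genes on both sides of MIR4527HG were not called. IER3IP1, the nearest tested upstream at 109 kb, had 692 ± 121 and 858 ± 106 normalized counts (log2 fold change 0.31, SE 0.16, adjusted p = 0.381), and was called without empty vector replicate 3 at 0.46 (adjusted p = 0.00716). SMAD2, a transducer of transforming growth factor beta signals 214 kb downstream, was at 4404 ± 326 and 4950 ± 299 (0.17, SE 0.11, adjusted p = 0.525). PIAS2, a SUMO ligase 366 kb upstream, was at 0.35 (SE 0.14, adjusted p = 0.161) with groups that did not overlap. With the replicate block PIAS2 was called at 0.34 (adjusted p = 0.00801), and without empty vector replicate 3 at 0.42 (adjusted p = 0.0091). The 3 small genes annotated inside the host body had 0 or 1 read in every library.

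OSCAR sits in the densest of the windows, 97.1 genes per Mb, and none of the 41 neighbours tested with DESeq2, or of the 38 tested with edgeR, was called. NDUFA3, a subunit of respiratory complex I that begins 0.036 kb upstream of OSCAR on the opposite strand, had 1726 ± 154 and 1872 ± 140 normalized counts (log2 fold change 0.12, SE 0.12, adjusted p = 0.771). The next on that side, the chromatin remodelling subunit TFPT at 4.33 kb, stood at -0.02 (SE 0.10, adjusted p = 0.981). On the other side the nearest tested gene, the calcium channel subunit CACNG6 at 82.0 kb, was at 0.02 (SE 0.18, adjusted p = 0.983). The ribosomal protein gene RPS9, 98.1 kb away, was at 0.04 (SE 0.12). Of the leukocyte immunoglobulin-like receptor genes, OSCAR's relatives in the complex, LILRB3 and LILRA6 had means under 10 normalized counts in both groups, and LILRA1, LILRA2, LILRA4 and LILRA5 had no read.

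Nearest to the threshold in the OSCAR window was CDC42EP5. This effector of the GTPase CDC42, 362 kb upstream, went from 288 ± 6.88 to 207 ± 33.5 (-0.48, SE 0.17, adjusted p = 0.0996), with groups that did not overlap. LENG9 was at -0.45 (SE 0.18, adjusted p = 0.134) and MBOAT7, a lysophosphatidylinositol acyltransferase, at 0.24 (SE 0.11, adjusted p = 0.24). Under the replicate block LENG9 was called lower (-0.45, adjusted p = 0.000508) and MBOAT7 higher (0.24, adjusted p = 0.0391). Without empty vector replicate 3, 5 OSCAR neighbours were called, CACNG8 (-0.42), CNOT3 (-0.39), LENG9 (-0.59) and PPP1R12C (-0.33) lower and TSEN34 (0.37) higher, with adjusted p between 0.000332 and 0.0339.

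The TAC1 window held the neighbours with the lowest adjusted p. ASNS, asparagine synthetase, lies 111 kb downstream of TAC1 on the opposite strand and had 173, 137 and 146 normalized counts in the controls and 64.5, 62.1 and 49.5 in the HMGB2 libraries. Its mean went from 152 ± 18.5 to 58.7 ± 8.03, a change of -1.37 on the log2 scale (SE 0.23, adjusted p = 8.83e-07 with DESeq2). The call held under all 14 alternatives, with adjusted p up to 0.00705 with edgeR. The counts are a fraction of its transcripts, since 45.8% of its 50-base words also belong to other genes, chiefly ENSG00000284707, an overlapping lncRNA on the same strand, and reads shared by both are not counted.

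NPTX2, a secreted neuronal pentraxin of synapses 877 kb downstream, changed the opposite way to TAC1. Its normalized counts were 158 ± 10.7 in the controls and 579 ± 20.2 in the HMGB2 libraries, a change of 1.88 on the log2 scale (SE 0.14, adjusted p = 3.51e-35 with DESeq2), called under all 14 alternatives. Between ASNS and NPTX2 lay tested genes that were not called, among them the kinase LMTK2 at 0.00 (SE 0.26), TECPR1 at -0.17 (SE 0.16) and BRI3 at -0.36 (SE 0.13, adjusted p = 0.112). BRI3 was called lower under the replicate block (-0.35, adjusted p = 0.00391). Upstream of TAC1 the nearest tested gene, SDHAF3, an assembly factor of succinate dehydrogenase at 550 kb, was at 1860 ± 325 and 1863 ± 199 (0.00, SE 0.15, adjusted p = 0.997).

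**Figure D3:**
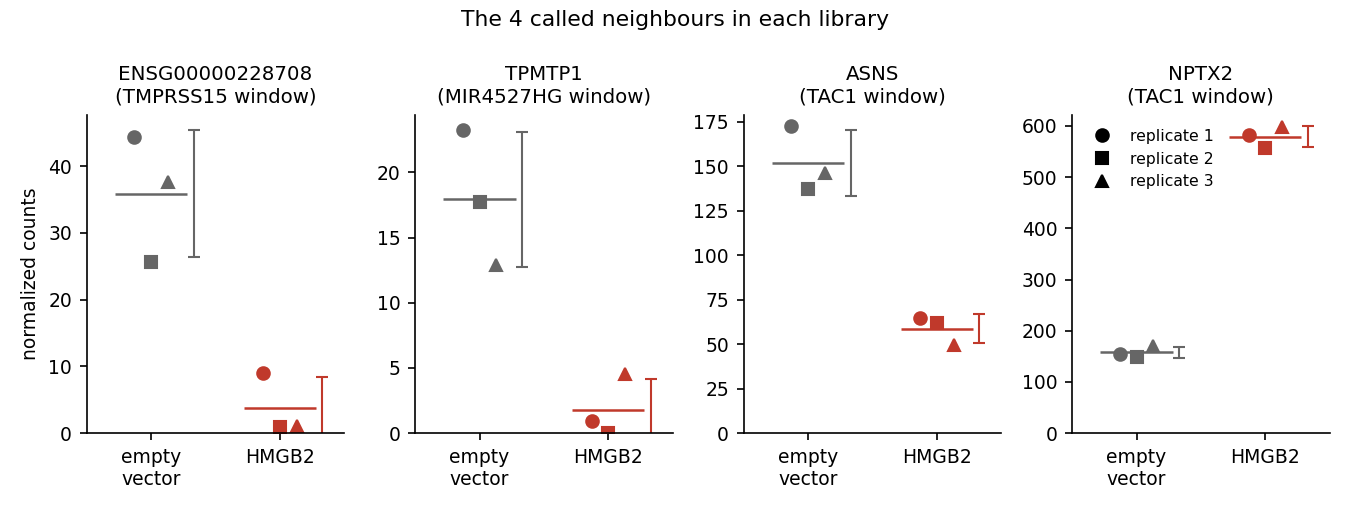
Normalized counts of the 4 called neighbours in each library, on linear axes from 0; symbols are replicates, horizontal lines are means and bars are ± 1 SD (n = 3), those of the low HMGB2 groups being cut at 0. The groups do not overlap in any panel; NPTX2 goes from 158 to 579 and the other 3 fall.

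Lists of genes known to act with TAC1, OSCAR or TMPRSS15 were set beside the 4.94% of all genes that were called and the overall median of 0.003. No list was made for the lncRNA MIR4527HG. Among the other tachykinin genes, TAC3, TAC4, TACR1 and TACR3 had at most 3 reads in any library. TACR2, the receptor of neurokinin A and the only one tested, had 19.4 ± 2.78 and 12.9 ± 3.90 normalized counts (-0.60, SE 0.51, adjusted p = 0.705). TACR1, the main receptor of substance P, had 1 read in each group.

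Genes that process or degrade neuropeptides were higher in part, 3 of 8 tested, with a median of 0.48 and none lower. PCSK1, the prohormone convertase, rose from 2095 ± 325 to 3825 ± 377 (0.87, SE 0.15, adjusted p = 5.48e-07 with DESeq2). MME, the peptidase neprilysin that cleaves substance P, rose from 60.0 ± 19.3 to 190 ± 57.0 (1.66, SE 0.30, adjusted p = 4.5e-06). Both calls held under all 14 alternatives. PAM, which amidates the peptide end, rose by 0.33 (SE 0.09, adjusted p = 0.0107), a call lost without empty vector replicate 1 or 2 (0.349 and 0.162) or without HMGB2 replicate 1, 2 or 3 (0.353, 0.216 and 0.135), and with edgeR (0.0734). FURIN, the most abundant per kilobase, was at -0.15 (SE 0.19). Without empty vector replicate 3, FURIN (-0.35, adjusted p = 0.0109 with DESeq2) and ECE1 (-0.54, adjusted p = 0.000792) were called lower. DPP4 was then called higher (0.81, adjusted p = 0.0337).

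Of 14 OSCAR partners and ligands 12 were tested, 2 were higher and the median was 0.21. FCER1G, the Fc receptor gamma chain, had 13.9 ± 4.41 and 7.76 ± 4.30 normalized counts (adjusted p = 0.665), and the related adaptor TYROBP had no read. TNFSF11, the osteoclast cytokine RANKL, had 0, 0 and 1 reads in the controls and 6, 13 and 7 in the HMGB2 libraries (adjusted p = 0.04 with DESeq2), and COL2A1, a collagen that OSCAR binds, rose by 0.68 (SE 0.22, adjusted p = 0.0441). Both lay near the threshold. TNFSF11 was given an adjusted p in 3 of 14 alternatives, 0.0403 with TMM factors, 0.0695 without the independent filter and 0.349 without empty vector replicate 1, and none in the other 11, edgeR and the replicate block among them. COL2A1 had adjusted p from 0.0955 (without empty vector replicate 3) to 0.314 (without HMGB2 replicate 1) when any one library was left out, 0.0511 with TMM factors, 0.0889 with edgeR, 0.0766 without the independent filter and 0.052 under the replicate block. COL1A1, the most abundant of the list per kilobase, was at 0.52 (SE 0.22, adjusted p = 0.208). Without empty vector replicate 3 it was called higher (0.82, adjusted p = 5.92e-07 with DESeq2), as was COL1A2 (0.46, adjusted p = 0.0251).

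Relatives of TMPRSS15 among the type II transmembrane serine proteases were mostly low, 10 of 17 having means under 10, and 1 of 10 tested fell, with a median of -0.63. TMPRSS4 had 104, 93.0 and 22.5 normalized counts in the controls and 22.7, 15.8 and 30.4 in the HMGB2 libraries, so that empty vector replicate 3 lay among the HMGB2 values. It fell by 1.68 on the log2 scale (SE 0.52, adjusted p = 0.0291 with DESeq2), and the change was -2.11 (adjusted p = 2.32e-06) without that library. The call was lost without empty vector replicate 1 or 2 (0.423 and 0.26) or HMGB2 replicate 1 or 2 (0.121 and 0.186), with edgeR (0.142) and without the independent filter (0.0506). TMPRSS5, the most abundant per kilobase, was at -0.20 (SE 0.12, adjusted p = 0.447). Along the trypsin axis that enteropeptidase starts, 4 of 9 genes were tested and the median was 0.07. The trypsinogens, substrates of enteropeptidase, were named after their values had been seen, as empty vector replicate 3 decided them. PRSS2 had 6, 4 and 155 reads in the controls and 77, 108 and 85 in the HMGB2 libraries, and received no adjusted p. PRSS1 had 0, 0 and 35 reads in the controls and 28, 31 and 19 in the HMGB2 libraries (adjusted p = 0.918 with DESeq2). Without empty vector replicate 3 both were called higher, PRSS2 by 4.26 on the log2 scale (SE 0.57, adjusted p = 8.82e-12) and PRSS1 with an adjusted p of 0.000113. The 2 genes are near-identical in part, sharing 11.03% of the 50-base words of PRSS2 and 4.33% of those of PRSS1 with relatives, so the split of reads between them is uncertain. F2RL1, the receptor that trypsin cleaves, rose from 453 ± 139 to 814 ± 118 (0.85, SE 0.21, adjusted p = 0.00303), with adjusted p of 0.0721, 0.0509 and 0.0658 without empty vector replicate 1, empty vector replicate 2 or HMGB2 replicate 3, and 0.0722 with edgeR.

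**Figure D4:**
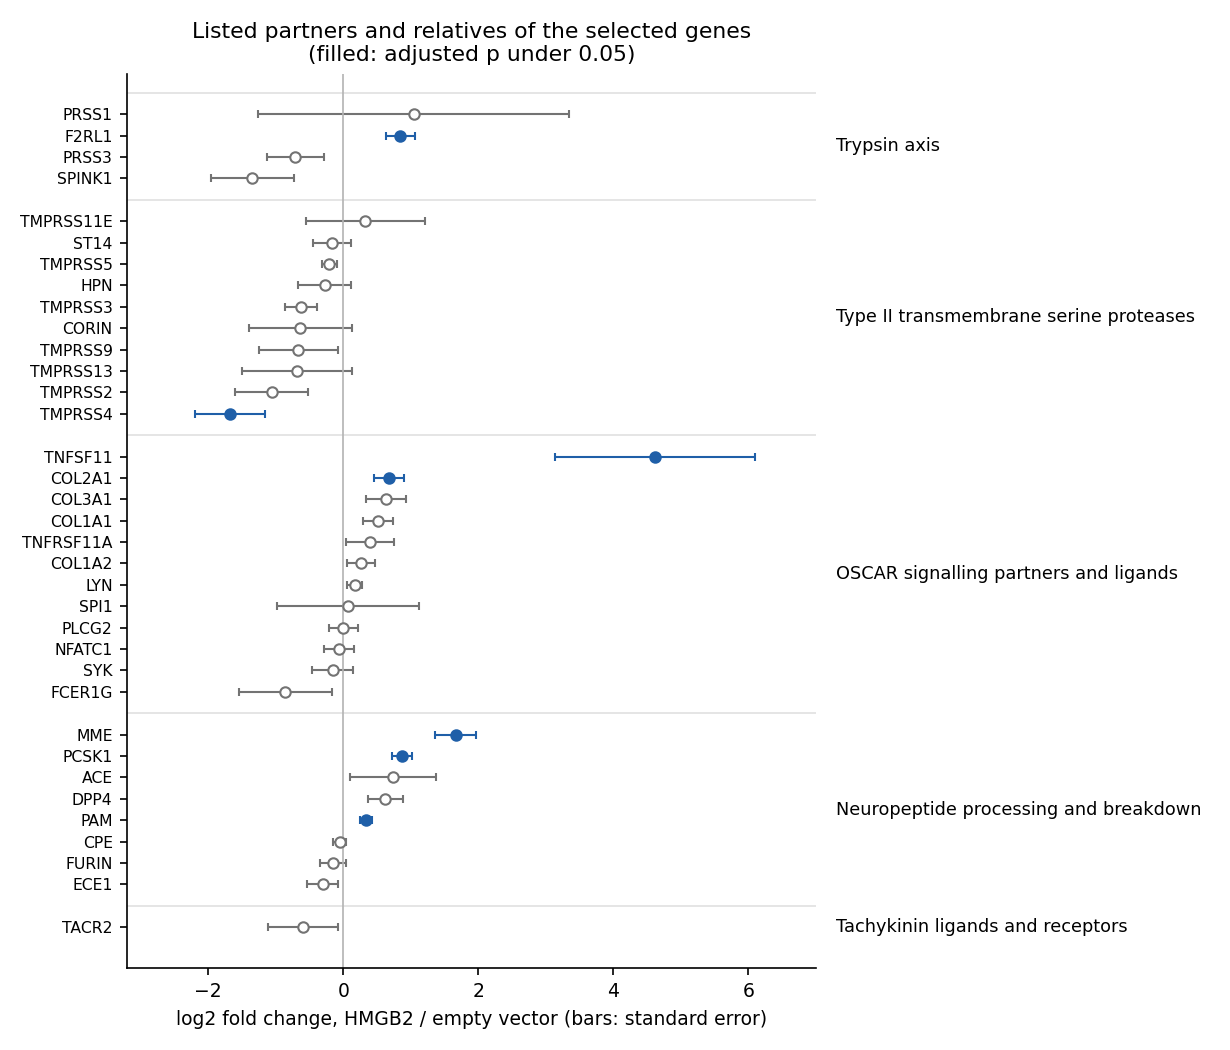
Log2 fold change (HMGB2 over empty vector) with its standard error for every listed partner or relative that received an adjusted p; filled blue points have an adjusted p under 0.05. Of 35 genes 7 are filled, 6 to the right of 0 and TMPRSS4 to the left at -1.68.

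Markers were listed for cell types that normally express TMPRSS15, OSCAR or TAC1. Of 9 enterocyte markers 3 were tested and none was called, with a median of -0.06. SI and APOA4 had no read, and LCT had none in the column used. Their summed level was 5897 to 9696 normalized counts in the controls and 6985 to 9094 in the HMGB2 libraries, nearly all of it ANPEP, at -0.06 (SE 0.20). CDX2, an intestinal transcription factor named after its values had been seen, had 39.4, 32.8 and 10.7 normalized counts in the controls and 7.27, 12.8 and 12.4 in the HMGB2 libraries, so that empty vector replicate 3 lay among the HMGB2 values. It was at -1.37 (SE 0.59, adjusted p = 0.211 with DESeq2), and at -1.75 (adjusted p = 0.0194) without that library. KRT20, ERN2 and PIGR, genes of gut and other epithelia outside the list, were picked for their falls. They were called lower, at -4.10, -3.83 and -3.79 (adjusted p = 0.00454, 0.00915 and 0.0171 with DESeq2). For each of them empty vector replicate 3, with 3, 2 and 2 reads, lay among the HMGB2 values. Of 9 myeloid and osteoclast markers 5 were tested and 2 were called, both higher, where 4.94% of all genes were called. Their median was 0.44 and their sums 6558 to 8805 and 7535 to 9041, most of it ITGB3 (0.00, SE 0.16). PTPRC had no read. ACP5 rose by 0.44 (SE 0.12, adjusted p = 0.011 with DESeq2) and CTSK by 0.48 (SE 0.13, adjusted p = 0.0109), osteoclast enzymes that went the other way to OSCAR. Left-out libraries raised the adjusted p of ACP5 to 0.223 and 0.242 (empty vector replicates 1 and 2) and 0.286, 0.198 and 0.129 (HMGB2 replicates 1, 2 and 3), and that of CTSK to 0.186, 0.161, 0.0862, 0.0556 and 0.246 in the same order. With edgeR they were 0.0553 for ACP5 and 0.069 for CTSK.

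Of 9 neuron markers 5 were tested, of which 1 was called higher and 2 lower, where 4.94% of all genes were called. Their median was -0.25 and their sums 1198 to 1784 and 883 to 1153, and GAD2 had no read. SNAP25 rose from 87.4 ± 26.6 to 184 ± 25.6 (1.07, SE 0.26, adjusted p = 0.00146 with DESeq2), whereas SYT1 fell from 1330 ± 319 to 758 ± 143 (-0.81, SE 0.20, adjusted p = 0.00328). RBFOX3 fell from 20, 37 and 17 reads to 1, 2 and 0 (adjusted p = 0.000348), a call that held in the 10 of 14 alternatives that gave an adjusted p. SNAP25 missed the threshold without empty vector replicate 1 (0.0549) or HMGB2 replicate 3 (0.057), and SYT1 without empty vector replicate 1 or 2 (0.0605 and 0.0655) or HMGB2 replicate 3 (0.0558) and with edgeR (0.073). The part of other cell types in the falls of the 4 genes was not tested.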

How the data were processed

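Poly(A)-selected RNA of 6 A375 libraries was sequenced, and the submitters' processing notes name bcl2fastq 2.20, FastQC, Trimmomatic, STAR and GRCh38. The deposited files hold raw read counts per gene, made by the authors without normalization, in the layout of STAR's gene counts. The column that takes reads from either strand was used, in which reads that fall on several genes are set aside, and the 4 summary lines were left out. Symbols and positions were taken from GENCODE 44, which matched 57532 of 58302 IDs.

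The counts were fitted in R 4.3.3 by DESeq2 1.42.0 at its defaults (Wald test, group alone, unshrunken log2 fold changes), as in the study's methods. Calls were made where the p adjusted by Benjamini-Hochberg over 18836 genes was under 0.05. Neighbours were genes overlapping the window from 1 Mb before to 1 Mb after a gene body. Named neighbours were every called one, the nearest tested on each side, and any gene with a mean of 10 or more counts overlapping the body. From each list the called genes and the most abundant per kilobase were named. Others were named after their values had been seen. The 4 genes and the lists were chosen with earlier results of these data known. Same-numbered libraries deviated from their group means together over genes (correlations of 0.192, 0.383 and 0.65), so the replicate number was tried as a block. The other alternatives were edgeR 4.0.16, TMM factors, count filters, stranded sums, a batch term for the third replicates, and fewer libraries, genes or bases of window. A375 replicates may be technical, so p-values measure only the spread between these libraries.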

Additional observations from a re-analysis of the deposited data

Results flagged for a closer look

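NLRP7, an inflammasome-family gene 821 kb upstream of OSCAR, showed reads in the stranded count columns that were not used for the comparisons. Those columns held 33 reads over the HMGB2 libraries (14, 10 and 9) and 1 read over the empty vector libraries, with a DESeq2 adjusted p of 0.014. In the column used, the gene had 26 reads against 0 and received no adjusted p under the independent filter, and 0.0124 without that filter. It shares 8.93% of its 50-base words with NLRP2, which was at 0.25 (SE 0.16, adjusted p = 0.538).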

How the results depend on the processing

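The falls of TMPRSS15, MIR4527HG, OSCAR and TAC1 and the rise of HMGB2 kept their direction and moved by less than the spread between libraries in all 14 alternatives. Counts of calls moved more. The 1 neighbour called higher became 2 without the independent filter, 4 with the replicate block, 6 with replicates 1 and 2 alone, 2 with stranded sums, 7 with the third replicates as a batch, 0 in a window of 0.5 Mb and 2 in one of 2 Mb. The 3 called lower became 5 with replicates 1 and 2 alone, 5 with the batch term, 6 in the window of 2 Mb and 1 among protein-coding genes. Leaving out 1 library gave 1 to 6 higher and 2 to 6 lower, the highest of both without empty vector replicate 3. The 9 listed genes called higher became 3 with edgeR and the 3 called lower 1, while replicates 1 and 2 alone gave 5 lower. Leaving out 1 library gave 2 to 12 listed genes higher and 1 to 5 lower. Over the whole table the share of genes called moved too, from 1.97% without empty vector replicate 1 to 17.8% without empty vector replicate 3. The replicate block changed the calls of PPIAP22, PIAS2, MBOAT7, LENG9, BRI3 and COL2A1 among the named genes, and gave ENSG00000228708, TPMTP1, RBFOX3, TNFSF11, PRSS1 and CDX2 no adjusted p. With counts of about 10 to 30 reads, as for TAC1 under HMGB2 overexpression, depth limits the precision. The cause of these shifts was not tested.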
